A study of Homo sapiens with 6 samples.

Results

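The genes of sphingosine 1-phosphate (S1P) metabolism described here are 10 in number and were selected by their role and on the contrast between PDCD4-depleted and control cells. They are the kinases SPHK1 and SPHK2, the phosphatases SGPP1 and SGPP2, the lyase SGPL1, the ceramidases ASAH1, ACER2 and ACER3, and the receptors S1PR2 and S1PR5. Because the siPDCD4 and siCT values themselves led to the choice of these genes, their levels and fold changes are given as a description. They took part in the fit over all genes, but their calls in it are no independent test and nothing is rested on them. Of 34486 genes with a matched transcript 13047 were expressed highly enough to be tested, and 8 of the 10 were among them. S1PR5 had no reads in any library, and SGPP1 was not analysed here.

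Total RNA came from MCF10A, an immortalised, non-tumorigenic human breast epithelial line of wild-type genotype. All cells grew in DMEM/F12 with horse serum (5%), epidermal growth factor (20 ng/ml), insulin (10 µg/ml), hydrocortisone (500 ng/ml) and cholera toxin (10 ng/ml), and received 10 nM siRNA for 48 h with fresh medium after 6 h. In 3 libraries the siRNA was directed against PDCD4 (siPDCD4), and in 3 libraries it was a control siRNA (siCT). PDCD4 is an RNA-binding tumour suppressor known to inhibit the translation helicase eIF4A when in the cytoplasm. In MCF10A cells the study found it mainly in the nucleus, and eIF4A was not among the partners it identified. No label ties the 3 libraries of a group to separate cultures, so errors and p-values reflect only how far these libraries differ, and that spread may be technical.

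S1P is a lipid mediator made and destroyed within cells by a short chain of enzymes. Ceramidases release sphingosine from ceramide, sphingosine kinases phosphorylate it to S1P, S1P phosphatases return it to sphingosine, and S1P lyase cleaves it irreversibly, the only exit from sphingolipid metabolism. Exported S1P acts on a family of G protein-coupled receptors and is known for roles in survival, migration and the barrier function of epithelia, while ceramide is better known for growth arrest and apoptosis. RNA alone was measured, and neither lipids nor enzyme activities are among these data.

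Totals of estimated counts lay between 13410441 and 21828931 per library. Values of single libraries are given below in the order of replicates 1, 2 and 3. PDCD4 itself stood at 90.4, 89.0 and 61.1 CPM in siCT and at 9.15, 7.43 and 8.62 CPM in siPDCD4. CPM are counts scaled to a common library total with TMM factors and corrected for the average transcript length of the gene. The log2 fold change of PDCD4 was -3.25 ± 0.17 (SE, n = 3 against 3), and the edgeR quasi-likelihood test gave an adjusted p of 2.15e-05. The siCT replicate 3 library was set apart from the other 5 on the first principal component, had the lowest total and had the lowest share of counts in protein-coding genes (76.2% against 78.7% to 86.4% elsewhere). The first component held 27.9% of the variance and the second 22.4%. On the second, siCT replicate 3 stood at 7.49, among the siPDCD4 libraries (4.72 to 20.8), whereas siCT replicates 1 and 2 stood at -30.5 and -15.5. The basal keratins KRT5, KRT14 and KRT17 with TP63 together held 1627 to 2002 TPM in siCT and 1556 to 1971 TPM in siPDCD4, where TPM, a level per length, is the share of a gene among all transcripts scaled to a fixed sum. EPCAM, CDH1, KRT8 and KRT18 together held 387 to 498 TPM in siCT and 416 to 463 TPM in siPDCD4. Within these sums TP63 was at 12.4 to 14.2 TPM in siCT and 16.6 to 18.3 TPM in siPDCD4, without overlap. KRT8 was at 132 to 163 TPM in siCT and 122 to 124 TPM in siPDCD4, also without overlap. The ranges of all other genes of both lists overlapped. Of these, KRT17, EPCAM and KRT18 had a higher mean in siPDCD4 and KRT5, KRT14 and CDH1 a lower mean, so neither list moved in 1 direction. Summed levels of fibroblast (COL1A1, COL3A1, PDGFRB), endothelial (PECAM1, CDH5) and leukocyte (PTPRC) markers stayed below those of either epithelial list, with 1.93 TPM for fibroblast markers in siCT as the highest sum. PECAM1 was at 0.137 to 0.143 TPM in siCT and 0.171 to 0.606 TPM in siPDCD4, and CDH5 had at most 0.0243 TPM in any library. The part of these markers in the levels below was not tested. ESR1 stayed at or below 0.196 TPM and PGR had no reads.

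SGPP2, one of the S1P phosphatases of the endoplasmic reticulum and the one known to be induced by inflammatory signals, was lower in every siPDCD4 library than in every siCT library. Its level was 38.5, 34.7 and 39.1 CPM in siCT, compared with 20.7, 21.7 and 22.4 CPM in siPDCD4. The groups thus did not overlap, and the gap between them was wider than the range within either. The mean fell from 37.5 ± 2.36 to 21.6 ± 0.84 CPM (SD, n = 3 each), a change of -42.3%. The log2 fold change was -0.79 ± 0.11 (SE), and 1.12% of all tested genes had a lower one. Between 310 and 797 estimated counts lay behind each value, for which counting error alone amounted to at most 5.68% of a count. In bulk RNA a lower level in each cell and a smaller number of cells with the transcript cannot be told apart.

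SGPP2 was the only one of the 8 tested genes past an FDR of 5% in the fit over all genes. In that fit 34 genes were lower (0.261% of all tested) and 22 were higher (0.169%), and nothing is read from the count of 1, since this contrast led to the choice. The count was 0 without siPDCD4 replicate 1 and without siPDCD4 replicate 2. The log2 fold change of SGPP2 was between -0.84 and -0.76 over the 12 alternatives, which use the same libraries.

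SGPP2 is a gene on the forward strand of chromosome 2, at chr2:222424543-222562621 (GRCh38), and all of its counts belonged to 1 protein-coding transcript, SGPP2-201, 4983 bases long. RefSeq (GRCh38.p14) gives a pair of start sites for the gene. The stretches of 250 bases before each are shown because SGPP2 had the largest fold change of the group and because they differ in composition. The first lies at chr2:222423738-222423987, before a start site to which no transcript of the tables used here belongs, and the second at chr2:222424293-222424542, directly before SGPP2-201. Capitals mark matches to the motifs searched.
SGPP2 upstream start: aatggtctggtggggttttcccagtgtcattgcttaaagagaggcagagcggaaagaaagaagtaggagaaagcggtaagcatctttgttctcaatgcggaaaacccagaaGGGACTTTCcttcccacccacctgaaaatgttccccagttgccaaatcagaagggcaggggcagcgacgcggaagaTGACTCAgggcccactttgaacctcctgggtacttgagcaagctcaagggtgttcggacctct
SGPP2-201 start: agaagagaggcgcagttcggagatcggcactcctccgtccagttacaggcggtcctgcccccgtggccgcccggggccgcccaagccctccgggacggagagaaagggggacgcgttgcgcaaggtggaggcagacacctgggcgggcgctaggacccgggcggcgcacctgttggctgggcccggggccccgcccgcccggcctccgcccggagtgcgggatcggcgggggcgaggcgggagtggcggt
The motifs were the AP-1 motif TGANTCA, the NF-kB motif GGGACTTTC and the EGR motif GCGTGGGCG, read on both strands and chosen after the values were seen. In the upstream window GGGACTTTC began 139 bases and TGACTCA 63 bases before the start site, without overlap. The window of SGPP2-201 held none of the motifs. Counted with 50 bases after the start, the first window was 51.7% G and C with 9 CpG, and the second was 78.0% G and C with 40 CpG. Of 35116 RefSeq windows of that kind 7.71% held TGANTCA, 0.387% held GGGACTTTC and 0.795% held GCGTGGGCG. The table had 13 windows for 8 of the 10 genes, and TGANTCA was found in only 1 other gene of them, in a pair of SPHK1 windows. In these SPHK1 windows 227 and 142 of the 250 bases lie in exons of other SPHK1 transcripts, and the windows are not shown. In the one with 142, TGANTCA began 71 bases before the start site at position 76385278. That site lies close to the start of SPHK1-202 at 76385292, the SPHK1 transcript with the most counts.

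SPHK1, the mainly cytosolic kinase that makes S1P after growth factor stimulation, stood at 14.3, 14.96 and 19.1 CPM in siCT and at 19.1, 22.1 and 22.3 CPM in siPDCD4. The siPDCD4 libraries were all above the siCT libraries, but siCT replicate 3 and siPDCD4 replicate 1 nearly touched. The mean was 16.1 ± 2.60 CPM in siCT and 21.2 ± 1.75 CPM in siPDCD4. The log2 fold change was 0.40 ± 0.15 (SE), with 94.0% of tested genes below it. It was 0.53 without siCT replicate 3, the library that stood apart, and 0.32 without siCT replicate 1. SPHK2, the kinase also found in the nucleus and mitochondria, stood at 4.49, 5.93 and 5.77 CPM in siCT and at 5.84, 6.75 and 3.88 CPM in siPDCD4. Its groups overlapped widely, and the log2 fold change was 0.03 ± 0.24.

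SGPL1, the S1P lyase, stood at 75.4, 70.8 and 79.9 CPM in siCT and at 75.6, 80.9 and 97.1 CPM in siPDCD4. The groups overlapped, siPDCD4 replicate 3 being the highest library, and the log2 fold change was 0.17 ± 0.11. It stayed above 0 under all 12 alternatives, with 0.06 without siPDCD4 replicate 3 as the lowest value.

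Among the ceramidases ASAH1, the lysosomal acid ceramidase, stood at 74.5, 75.5 and 71.2 CPM in siCT and at 63.5, 66.5 and 79.2 CPM in siPDCD4. Its siPDCD4 libraries lay on both sides of the siCT range, and the log2 fold change was -0.08 ± 0.10. ACER3, the alkaline ceramidase that prefers unsaturated long-chain ceramides, stood at 49.1, 60.9 and 48.8 CPM in siCT and at 60.7, 47.7 and 49.3 CPM in siPDCD4. In each group 1 library stood above the other two, at 60.9 CPM in siCT and 60.7 CPM in siPDCD4, and the log2 fold change was -0.01 ± 0.13. ACER2, the alkaline ceramidase of the Golgi and a known p53 target, was much scarcer, at 3.92, 3.99 and 2.75 CPM in siCT and at 4.43, 4.55 and 5.27 CPM in siPDCD4. The groups did not overlap, and the log2 fold change was 0.41 ± 0.23. ACER2 rested on 34 to 85 counts per library, and counting error amounted to 17.1% of the lowest of these, in siCT replicate 3. Without that library the log2 fold change was 0.26.

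Of the receptors, S1PR2, which couples to several G protein classes and is known to restrain migration, stood at 3.19, 2.97 and 3.64 CPM in siCT and at 2.75, 3.99 and 5.27 CPM in siPDCD4. Both the lowest and the highest library belonged to siPDCD4, and the log2 fold change was 0.29 ± 0.28. It stayed above 0 over the 12 alternatives but ranged from 0.05 to 0.51, the lowest value being that without siPDCD4 replicate 3. S1PR2 (chr19:10221433-10231331) had between 44.9 and 84.8 counts per library. It shares its strand and nearly all of its span with DNMT1 (overlap at chr19:10221433-10231286), whose log2 fold change was -0.22 ± 0.08. S1PR5, the receptor best known from natural killer cells and oligodendrocytes, had 0 counts on 3 listed transcripts in all 6 libraries. A count of 0 allows up to 3 counts, which is 0.137 to 0.224 CPM of the library totals and covers counting error only.

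**Figure D1:**
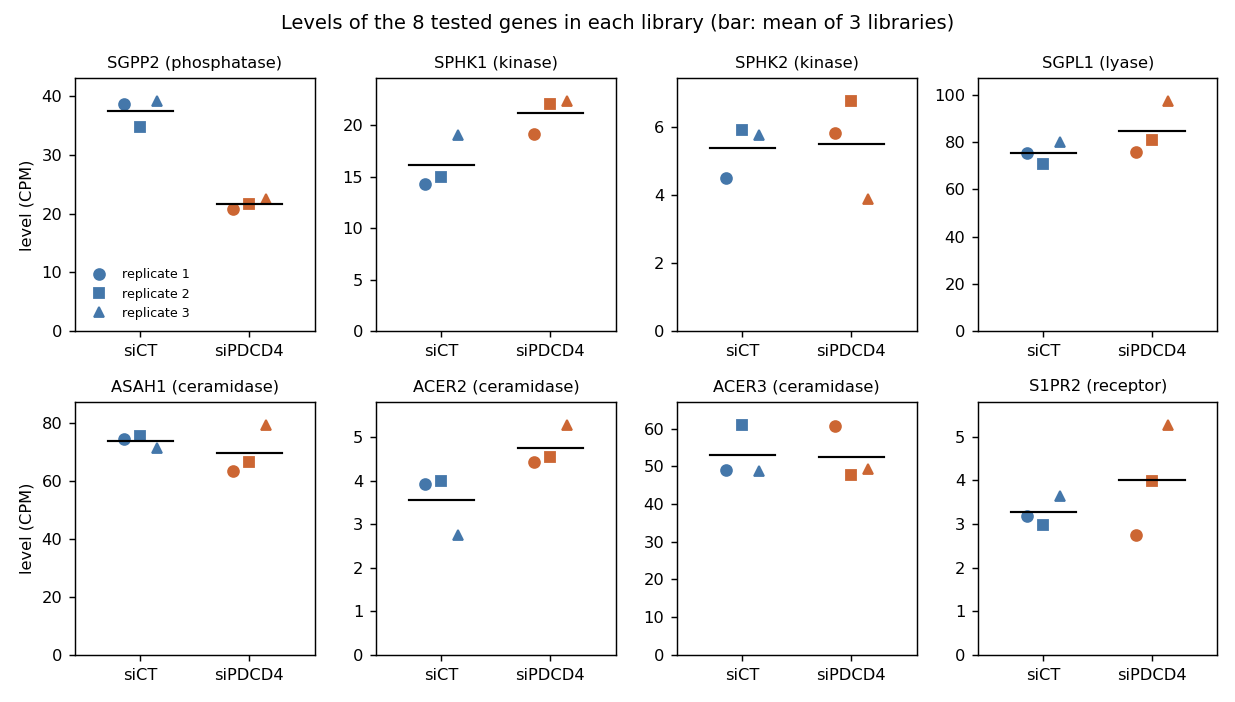
Level of the 8 tested genes in each library, in CPM on axes that start at 0, with 1 point per library, the marker shape for the replicate number and a bar for the mean of 3. SGPP2 lies at 34.7 to 39.1 CPM in siCT and 20.7 to 22.4 CPM in siPDCD4, SPHK1 and ACER2 are separated by narrow gaps, and the groups of the other 5 genes overlap.

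In all, 3 of the 8 tested genes had groups that did not overlap in CPM (SGPP2, SPHK1 and ACER2), beside 13.9% of all tested genes in either direction. The log2 fold change was above 0 in 5 and below 0 in 3 of the 8, with a median of 0.10 beside a median of -0.01 over all 13047 genes. These 8 are the genes that passed the expression filter and not all 10, and no more than a description is meant by the median. S1PR2 and SGPL1 had higher log2 fold changes than 90.4% and 82.0% of tested genes, and SPHK2, ACER3 and ASAH1 than 58.5%, 48.9% and 31.5%.

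Levels per length put the enzymes in an order that was much the same in both groups. In siCT the means were 42.4 ± 2.76 TPM for ASAH1, 16.4 ± 0.49 TPM for SGPL1, 11.5 ± 1.98 TPM for ACER3 and 9.03 ± 1.31 TPM for SPHK1 (SD, n = 3 each). Below these stood SGPP2 at 6.94 ± 0.17 TPM, SPHK2 at 2.92 ± 0.50 TPM, ACER2 at 1.23 ± 0.27 TPM and S1PR2 at 0.842 ± 0.062 TPM. The ranges of ACER3 and SPHK1 overlapped, and all other neighbours were separate in all 3 libraries. In siPDCD4 the order was ASAH1 (40.7 ± 4.52 TPM), SGPL1 (18.7 ± 2.32 TPM), SPHK1 (12.1 ± 0.92 TPM), ACER3 (11.5 ± 1.62 TPM), SGPP2 (4.07 ± 0.13 TPM), SPHK2 (2.998 ± 0.822 TPM), ACER2 (1.66 ± 0.15 TPM) and S1PR2 (1.04 ± 0.32 TPM). SPHK1 and ACER3 thus changed places in the means, again with overlapping ranges.

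**Figure D2:**
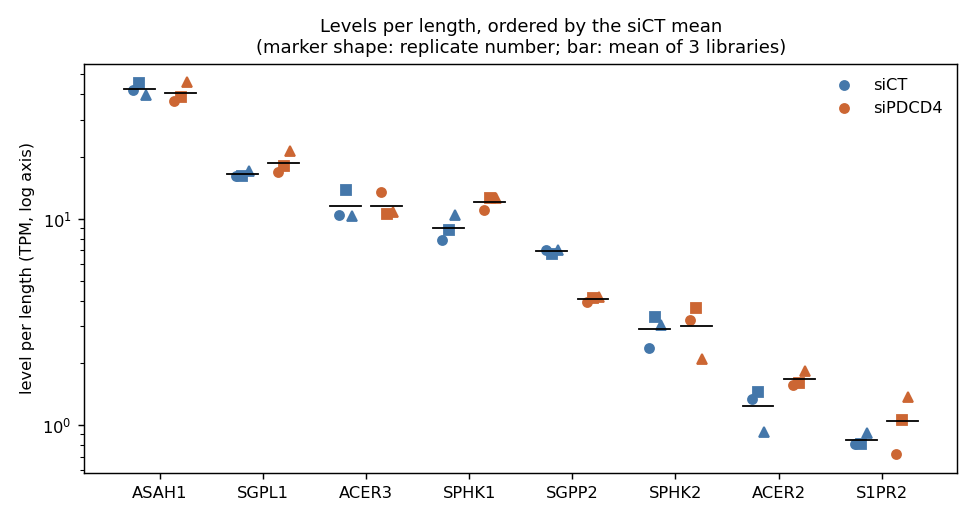
Level per length of the 8 tested genes in TPM on a log axis, ordered by the siCT mean, with 1 point per library and a bar for the mean of 3 libraries of each group. ASAH1 is highest at 37.3 to 45.8 TPM and S1PR2 lowest at 0.718 to 1.36 TPM over both groups, and SGPP2 is the gene whose groups stand furthest apart.

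Ratios of levels per length within a library were taken among the kinases, SGPP2 and SGPL1. SGPP1, the other S1P phosphatase, was not analysed here, and the lipid phosphatases of the cell surface are left out. The ratios thus do not weigh the making of S1P against its removal. SPHK1 over SGPP2 was 1.12, 1.30 and 1.48 in siCT, compared with 2.80, 3.08 and 3.01 in siPDCD4. With both kinases summed the ratio to SGPP2 was 1.72 ± 0.24 in siCT and 3.70 ± 0.24 in siPDCD4. SGPL1 over SGPP2 was 2.36 ± 0.06 in siCT and 4.58 ± 0.44 in siPDCD4. In none of these ratios did the groups overlap, but all share SGPP2 as denominator and so carry its lower siPDCD4 level. They add no support beyond the SGPP2 values given above. Without SGPP2 the picture differed, since SGPL1 over both kinases was 1.39 ± 0.17 in siCT and 1.24 ± 0.18 in siPDCD4 with overlapping groups.

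SPHK1 held 76.9%, 72.5% and 77.4% of the summed kinase level in siCT and 77.4%, 77.4% and 85.8% in siPDCD4, so that it was the predominant kinase in every library. ASAH1 held 77.0 ± 1.86% of the summed level of its class in siCT and 75.4 ± 3.64% in siPDCD4, where the class is the ceramidases ASAH1, ACER2 and ACER3. The share of ACER2 was 2.22 ± 0.36% in siCT and 3.08 ± 0.08% in siPDCD4, without overlap. SGPP2 held 7.98%, 7.002% and 7.89% of the summed level of the 8 genes in siCT, and 4.47%, 4.54% and 4.19% in siPDCD4. That sum itself was 91.3 ± 4.55 TPM in siCT and 92.7 ± 6.31 TPM in siPDCD4.

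**Figure D3:**
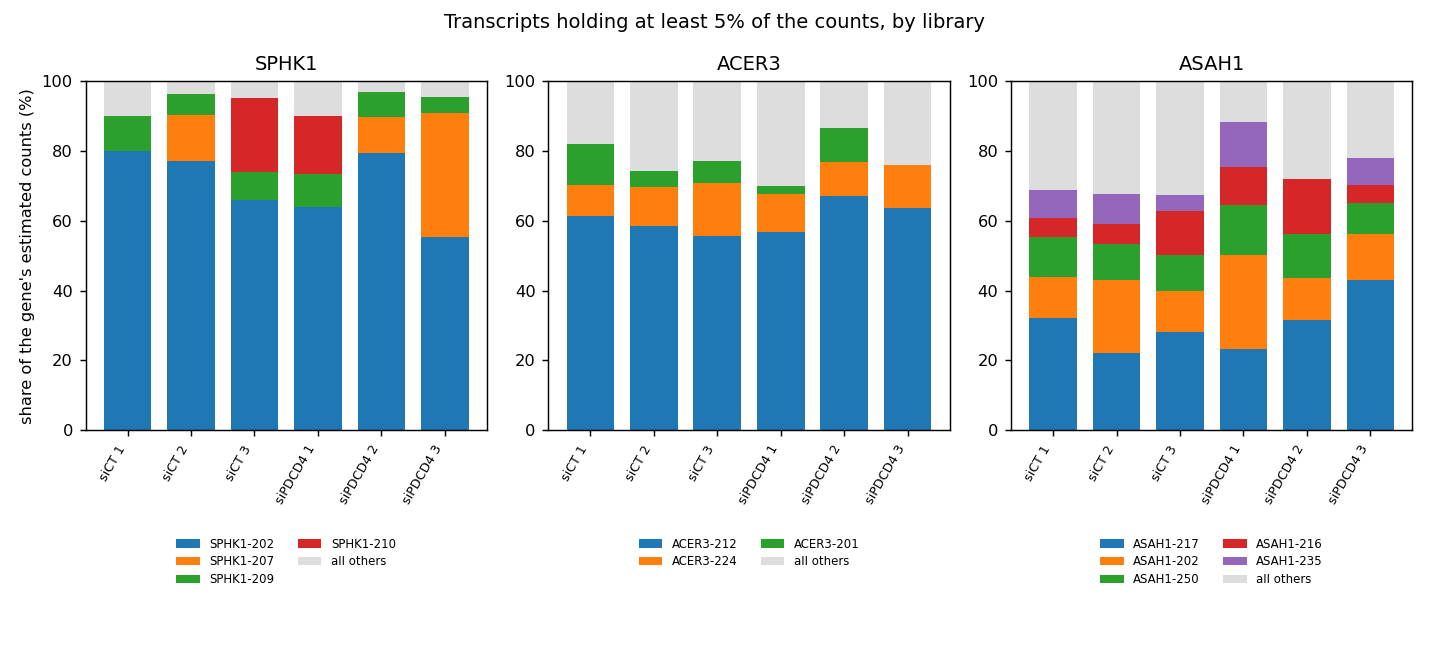
Share of the estimated counts of SPHK1, ACER3 and ASAH1 that Salmon gave to each transcript with at least 5% on average, in percent, with 1 bar per library and all other transcripts in grey. SPHK1-202 is the main SPHK1 transcript in all 6 libraries at 55.2% to 79.9%, whereas SPHK1-207 and SPHK1-210 each drop to 0 in several.

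The transcripts behind these levels differed in how firmly they were assigned. SGPP2, ACER2 and S1PR2 were each listed with 1 transcript, so no count was shared out within these genes. SPHK1 (chr17:76376584-76387860) was listed with 10 transcripts, of which SPHK1-202, starting at position 76385292 and 1779 bases long, held 79.9%, 77.1% and 65.8% of the counts in siCT and 64.0%, 79.3% and 55.2% in siPDCD4. The canonical SPHK1-210 had counts in siCT replicate 3 and siPDCD4 replicate 1 alone, with 21.4% and 16.7% of the gene. SPHK1-207, which begins 12 bases further on, had counts in the libraries siCT replicate 2, siPDCD4 replicate 2 and siPDCD4 replicate 3 alone, with 13.2%, 10.3% and 35.5%. No library had both, and siCT replicate 1 had neither. The retained-intron transcript SPHK1-209 held 8.09 ± 2.07% in siCT and 7.05 ± 2.26% in siPDCD4.

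SPHK2 (chr19:48619291-48630717) was spread over 13 transcripts, of which SPHK2-206 held 39.4 ± 14.7% in siCT and 33.8 ± 2.45% in siPDCD4, and the retained-intron transcript SPHK2-207 held 21.1 ± 5.14% and 16.7 ± 2.10%. SPHK2-202 and SPHK2-213 each held 10.6% to 23.9% on average in a group and were at 0 in 1 library. The 3′ end of SPHK2 overlaps DBP on the opposite strand (log2 fold change 0.81 ± 0.43). The transcripts of SGPL1 (chr10:70815905-70895816) numbered 18, and SGPL1-202 alone held 83.7 ± 1.35% of the counts in siCT and 82.5 ± 2.71% in siPDCD4.

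ACER3 (chr11:76860859-77026797) was listed with 35 transcripts and ASAH1, on chromosome 8, with 68. The canonical ACER3-212, 7333 bases long, held 58.4 ± 2.85% of ACER3 counts in siCT and 62.5 ± 5.21% in siPDCD4. The retained-intron transcript ACER3-224 held 11.7 ± 3.16% and 10.9 ± 1.26%, and ACER3-201, annotated as a target of nonsense-mediated decay, ranged from 0 to 11.8% over the libraries. In ASAH1 the most abundant transcript on average was ASAH1-217, also annotated as a decay target, with 27.4 ± 5.06% in siCT and 32.7 ± 9.85% in siPDCD4. In siPDCD4 replicate 1 alone ASAH1-202 held more, with 26.7% against 23.4% for ASAH1-217. The protein-coding transcripts ASAH1-202, ASAH1-250 and ASAH1-235 held 14.8%, 10.7% and 7.11% on average in siCT and 17.3%, 12.03% and 6.83% in siPDCD4, and the decay target ASAH1-216 held 7.91% and 10.6%. Over all its transcripts 50.6 ± 12.004% of ASAH1 counts in siCT and 48.5 ± 8.17% in siPDCD4 fell on those annotated as protein-coding. With protein-coding transcripts alone the log2 fold change of ACER3 was 0.24 ± 0.26 (SE) and that of SPHK2 was 0.26 ± 0.36 (SE), each within its SE of 0.

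**Figure D4:**
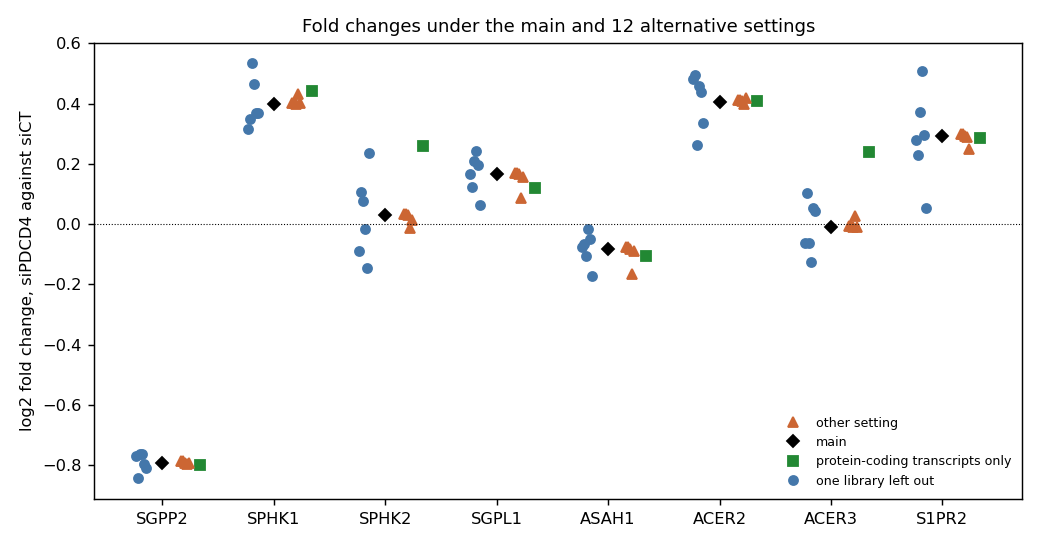
Log2 fold change of siPDCD4 against siCT for the 8 tested genes under the main setting (diamonds), with 1 library left out (circles), with protein-coding transcripts only (squares) and under the other alternatives (triangles). SGPP2 stays between -0.84 and -0.76 and SPHK1 between 0.32 and 0.53, whereas SPHK2 and ACER3 lie on both sides of 0.

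The wider pathway was followed in 62 other genes of sphingolipid metabolism and S1P signalling, of which 52 were tested. Another 8 were under the expression filter, CERS3 had no reads and APOM was not analysed here. None of the 52 passed an FDR of 5% in edgeR, although 5 (9.62%) had an unadjusted p under 0.05 beside 8.62% of all tested genes. DESeq2 called 2 of the 52, beside 191 of all 13047 tested genes. The median log2 fold change of the 52 was -0.05, with 18 above and 34 below 0. Over all tested genes the median was -0.01, with 6350 above and 6697 below 0. By list the medians lay between -0.25, for the 2 other S1P receptors tested, and 0.31, for the 2 other ceramidases tested. The genes named for each list are among those with the smallest p. Among the 13 tested genes of de novo ceramide synthesis (median -0.05), CERS2, the ceramide synthase for very long acyl chains, differed by -0.14 ± 0.08 on the log2 scale (adjusted p 0.718) and SPTLC3, a subunit of serine palmitoyltransferase, by -0.28 ± 0.17 (adjusted p 0.756). SPTLC3 stood at 35.3 CPM in siPDCD4 replicate 1, above all siCT libraries (31.5 to 34.7 CPM), and at 21.0 and 25.5 CPM in the other siPDCD4 libraries, and its log2 fold change was -0.51 without siPDCD4 replicate 1 and -0.13 without siPDCD4 replicate 2.

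Among the 13 tested genes of the glycosphingolipid list (median -0.11) B4GALT6, a lactosylceramide synthase, was at -0.78 ± 0.24 (adjusted p 0.316), with siPDCD4 replicate 1 at 10.2 CPM and the other siPDCD4 libraries at 5.37 and 5.34 CPM, against 11.1 to 12.3 CPM in siCT. Among the 8 tested genes of the sphingomyelin list (median -0.05) SMPD1, the acid sphingomyelinase that releases ceramide in lysosomes, was at -0.63 ± 0.20 (adjusted p 0.344) and CERT1, the ceramide transfer protein, at -0.16 ± 0.12 (adjusted p 0.855).

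Beside the 3 ceramidases above, ASAH2B, a partial copy of the neutral ceramidase gene ASAH2, stood at 10.8, 12.6 and 14.4 CPM in siCT and at 23.0, 19.0 and 18.1 CPM in siPDCD4. The log2 fold change was 0.68 ± 0.16 with an adjusted p of 0.130 in edgeR and 0.0178 in DESeq2. Without the correction for transcript length it was 0.19, and over the alternatives the adjusted p ranged from 0.0178 to 0.653. ASAH2 itself ranged from 0.501 to 5.23 CPM within siCT (log2 fold change -0.06 ± 1.05). The genes are near-identical over much of their sequence, so the division of reads between them is uncertain.

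For S1P turnover outside the phosphatases and lyase above 4 genes were tested (median 0.11). Of these PLPP2 and PLPP1, lipid phosphatases of the cell surface, had log2 fold changes of 0.28 ± 0.14 and -0.20 ± 0.19 (adjusted p 0.673 and 0.897). Of the 3 tested exporters and carriers (median 0.11), MFSD2B, a transporter of S1P, stood at 0.522 to 0.796 CPM in siCT and 0.975 to 1.07 CPM in siPDCD4 (0.59 ± 0.36, adjusted p 0.763). MFSD2B rested on only 8.60 to 19.4 counts per library, and counting error amounted to 34.1% of the lowest of these. ABCC1, a multidrug transporter, was at 0.11 ± 0.12 (adjusted p 0.926). The major S1P exporter of endothelium, SPNS2, was under the expression filter.

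S1PR3 was the most abundant S1P receptor, at 7.06 ± 0.69 TPM in siCT and 6.53 ± 0.64 TPM in siPDCD4, well above S1PR2 and above S1PR1 at 0.518 ± 0.204 and 0.413 ± 0.227 TPM. The log2 fold changes of S1PR3 and S1PR1 were -0.13 ± 0.12 and -0.37 ± 0.50 (adjusted p 0.889 and 0.955). Among the 7 alpha subunits of the G proteins to which these receptors couple, all 7 fold changes lay between -0.13 and -0.01, with GNAI2 at -0.13 ± 0.08 and GNA12 at -0.08 ± 0.10 (adjusted p 0.800 and 0.942).

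**Figure D5:**
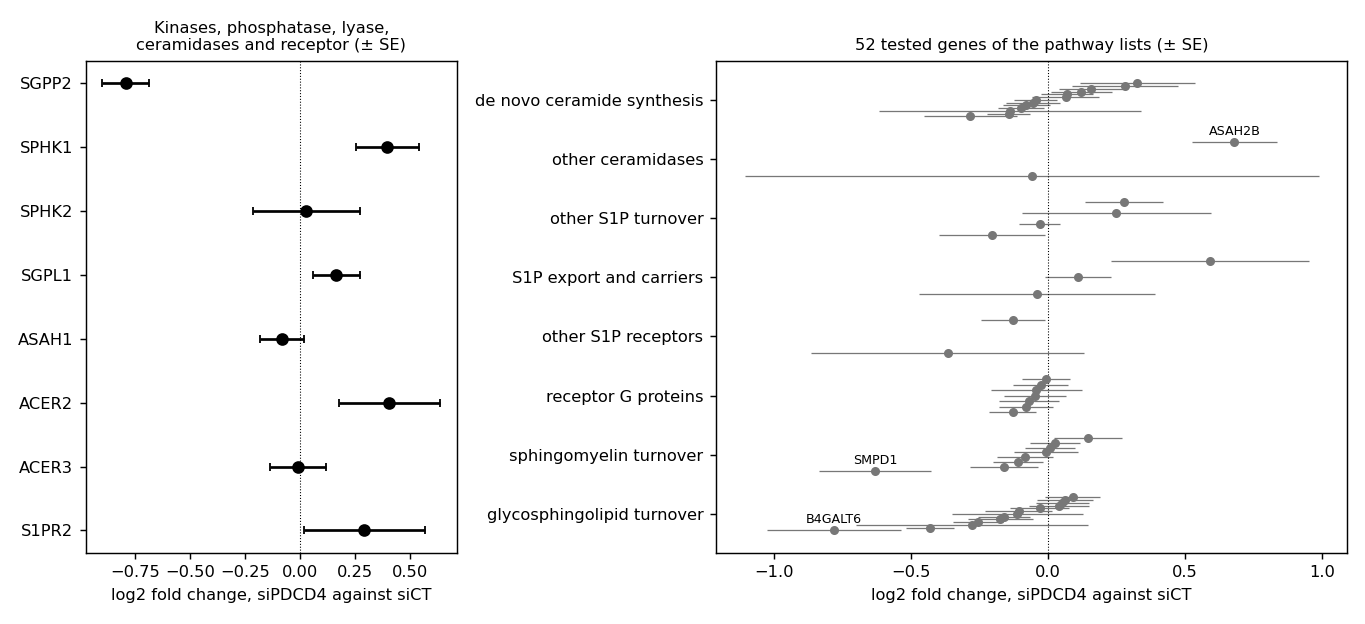
Log2 fold change of siPDCD4 against siCT with its SE, for the 8 tested S1P genes (left) and for the 52 tested genes of the pathway lists (right), with 1 point per gene. SGPP2 lies at -0.79 and SPHK1 at 0.40, and in the pathway lists the labelled B4GALT6, SMPD1 and ASAH2B stand away from 0 although none passed an FDR of 5% in edgeR.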

How the data were processed

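RNA of 3 siPDCD4 and 3 siCT samples was sequenced as paired reads of 75 bases from stranded total RNA libraries. The authors ran Salmon (its version and strand setting are not given in the sources used here) against the GRCh38 transcript release that the study's methods name and deposited, per transcript, estimated counts, TPM and an effective length. Estimated counts are not whole where a read suits several transcripts. TPM were also made by the authors in the Salmon run.

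Here 181244 of 194142 transcripts were matched by identifier to GENCODE release 44, whose coordinates are used. The other 12898 held 5.47% to 6.21% of counts and were not analysed here. Estimated counts and TPM were summed per gene. Rounded counts of all genes entered the quasi-likelihood F test of edgeR 4.0.16 (R 4.3.3; robust, TMM factors, filterByExpr, an offset for average transcript length), with group as the only factor and Benjamini-Hochberg adjustment. The SE is the log2 fold change divided by the square root of F. DESeq2 1.42.0 was the alternative test. Levels are CPM with TMM factors and the length offset, and TPM for comparisons between genes. The script was tested on simulated data. Promoter windows came from RefSeq.

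The genes, the pathway lists and the cell markers were chosen with earlier results of these data known. Named were PDCD4, the 10 genes, their transcripts with at least 5% of counts, the markers, and in each list any gene past an FDR of 5% or otherwise the 2 tested genes with the smallest p, of which 1 is not reported here. Alternatives were RLE factors, DESeq2, no filter, no length offset, a replicate block, protein-coding transcripts only, and leaving out each library in turn.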

Additional observations from a re-analysis of the deposited data

How the results depend on the processing

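Of the 12 alternatives, the log2 fold changes of SGPP2, SPHK1, SGPL1, ASAH1, ACER2 and S1PR2 kept their sign in all 12, SPHK2 in 8 and ACER3 in 7. The count of all genes past an FDR of 5% was 56 in the main fit, 191 with DESeq2 and 128 without the length offset. Without the expression filter it was 108, of 19505 tested. With 1 library left out it was 17 to 40, lowest without siPDCD4 replicate 1. It was 102 with a replicate block. The main fit did not take the replicate numbers as pairs. Deviations of same-numbered libraries from their group means correlated at 0.05, 0.09 and 0.15. Those of differently numbered libraries correlated at -0.16 to -0.01, except for 0.08 between siPDCD4 replicate 1 and siCT replicate 2. These values do not settle whether the numbers mark pairs. The count of the 8 S1P genes past the threshold was 0 to 1 with 1 library left out, and 0 only without siPDCD4 replicate 1 or 2. Of the 52 other pathway genes 2 passed with DESeq2 (ASAH2B among them), 1 without the length offset (B4GALT6), and none with 1 library left out. Without the filter 1 passed of 60 tested. Changes of sign were seen for ABCC1 (-0.063 without the length offset, -0.17 with protein-coding transcripts only), GNA12 (0.35 with protein-coding transcripts only), S1PR1 (-0.82 to 0.023 with 1 library left out, above 0 without siPDCD4 replicate 1) and ASAH2 (0.39 with the replicate block, and -0.66 to 1.68 with 1 library left out, above 0 without siPDCD4 replicate 3 or siCT replicate 1). The cause was not tested. ACER2, S1PR2 and SPHK2 had at most 114 counts in a library, and counting error alone came to 17.1%, 14.9% and 13.1% of their lowest counts.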
